A study of Mus musculus with 6 samples.

Results

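The replicate 2 libraries are 2 of the 6 RNA-seq libraries of mouse neural retinal progenitor cells (mNRPCs), 1 of 3 transfected with the Ifitm3 siRNA and 1 of 3 transfected with the control siRNA. They are set here against the other 4 libraries, replicates 1 and 3 of both siRNA groups. They were selected on the values of these same data, because both stood apart from the others along the first principal component of log2(FPKM + 0.1), so the difference itself is a description and carries no test. All 6 libraries came from 1 established line of adult mouse retinal cells, grown on Matrigel in N2/B27 medium with bFGF, CHIR99021 (an inhibitor of GSK3, which raises Wnt signaling) and 2-mercaptoethanol, and transfected with a lipid reagent. Poly(A) RNA was sequenced. Nothing in the sources used here says what a replicate number stands for, or that the libraries came from separate cultures, so that p-values measure the spread among the libraries only, and part of it may be technical.

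The values are FPKM, counts of fragments divided by transcript length and by the total of mapped fragments. The number of reads behind them is unknown. Of 55401 genes in the table, 12174 averaged 1 FPKM or more across all 6 libraries and were described. For each of them the replicate 2 difference is the log2(FPKM + 0.1) of replicate 2 minus the mean of replicates 1 and 3, taken within each siRNA group and then averaged over both groups. A gene is called higher where replicate 2 was above both other libraries of its own group in both groups and the difference was at least 1, and lower where it was below both in both groups and the difference was -1 or less. By these rules 265 genes (2.18% of the genes described) were higher and 174 genes (1.43%) were lower, and 54 and 30 of them differed by 2 or more on the log2 scale. Without the limit on size, replicate 2 was above both others in both groups in 21.5% of the genes (2621) and below both in 26.7% (3250). The median difference over all genes was -0.03. The first principal component held 37.7% of the variance, with scores of 42.9 in Ifitm3 siRNA replicate 2 and 28.2 in control siRNA replicate 2, against -29.3 to -1.06 in the other 4 libraries. Across genes the difference in the Ifitm3 siRNA group and that in the control siRNA group had a correlation of 0.446, which is a description, since genes are not independent replicates and the libraries were chosen for it.

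**Figure D1:**
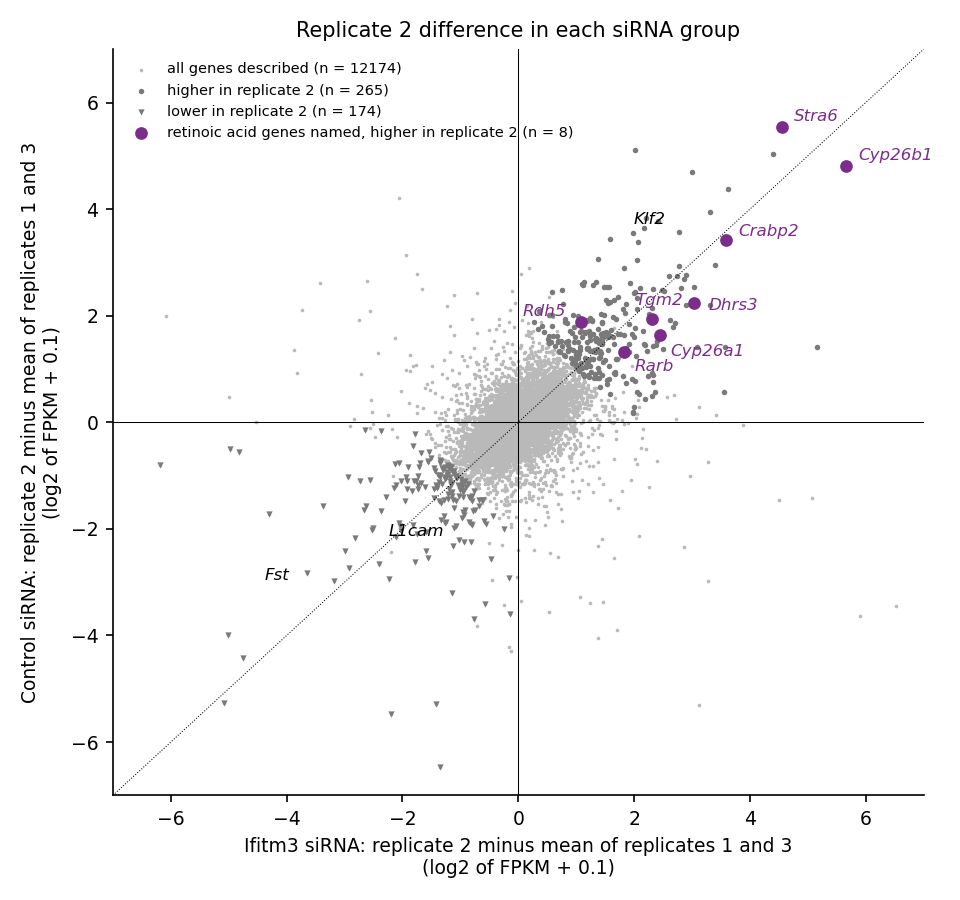
Replicate 2 difference of each gene in the Ifitm3 siRNA group (horizontal axis) and in the control siRNA group (vertical axis), both in log2(FPKM + 0.1), with all 12174 genes in light grey, the 265 higher and 174 lower genes in dark grey and 8 of the 9 higher genes of the retinoic acid list in purple. Cyp26b1 and Stra6 lie near the upper right corner, with differences of 5.24 and 5.04, and 2 genes lie outside the axes, which end at 7.

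Among the genes named here, Cyp26b1, Stra6 and Crabp2 had the largest positive differences, and all belong to the handling of retinoic acid. Genes outside the pathway, such as Klf2 (3.17), came next. Cells take up retinol (vitamin A) through the receptor STRA6, and oxidize it first to retinaldehyde and then to retinoic acid. Retinoic acid is passed on by the binding protein CRABP2 to nuclear receptors (RARs, paired with RXRs), which bind to pairs of short sequence repeats near their target genes, and it is broken down by the CYP26 enzymes. Several genes of the pathway, Cyp26a1 and Rarb among them, are classical targets of these receptors. In the eye retinoids also serve as the light-absorbing group of the visual pigments, and retinoic acid takes part in the patterning of the developing retina. A list of 40 genes of this pathway was written after the values had been seen, so that its counts give no support of their own.

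Well known binding sites of the receptors lie in the promoters of Cyp26a1 and Rarb. They are shown because both genes were higher in the replicate 2 libraries and because, among the promoters of the higher genes, they alone held the repeat searched for, which is the unit AGGTCA, its variant AGTTCA, its variant GGGTCA or its variant GGTTCA, followed by any of these 4 after 5 bases, on either strand. The sequences are the 100 bases before the transcription start in RefSeq (GRCm38.p6), 5′ to 3′ on the strand of the gene, with the 6-base repeats in capitals. Cyp26a1 lies at chr19:37697708-37697807 on the plus strand and its repeat, on the opposite strand, spans the bases from 32 to 16 upstream of the start. Rarb lies at chr14:16575477-16575576 on the minus strand and its repeat, on the strand of the gene, spans the bases from 53 to 37 upstream.
Cyp26a1: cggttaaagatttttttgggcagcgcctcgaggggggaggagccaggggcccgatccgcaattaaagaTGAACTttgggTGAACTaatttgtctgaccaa
Rarb: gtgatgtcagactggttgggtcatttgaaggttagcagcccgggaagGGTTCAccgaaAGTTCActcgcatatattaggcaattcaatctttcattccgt
In the window from 250 bases before to 50 bases after the start, this repeat was found in 2 of the 162 higher genes with a promoter in the table (1.23%), in 0 of 93 lower genes and in 3 of all 8617 genes described (0.0348%), the last of which is Blvrb. Of the 9 higher genes of the retinoic acid list, 6 had a promoter and 2 of these held the repeat (33.3%). A single repeat unit was in 48.1% of the promoters of higher genes, 48.4% of those of lower genes and 40.9% of all. The same units 1 or 2 bases apart were in 0 promoters of higher genes. The repeat was chosen after the values had been seen, and the sites in these promoters were already well known. These shares thus give no support of their own. A match of letters is not a bound site.

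The genes of retinoic acid breakdown were higher. Cyp26b1, which encodes a cytochrome that oxidizes retinoic acid, was at 24.1 FPKM in Ifitm3 siRNA replicate 2 and 23.6 FPKM in control siRNA replicate 2, against 0.20 and 0.66 FPKM in Ifitm3 siRNA replicates 1 and 3 and 1.11 and 0.49 FPKM in control siRNA replicates 1 and 3. The mean of the replicate 2 libraries was 38.8 times that of the other 4 (log2 difference 5.24). Its relative Cyp26a1 was at 6.63 and 5.15 FPKM in the Ifitm3 and control siRNA replicate 2 libraries, against 0.96 to 1.60 FPKM in the others (difference 2.05). Cyp26c1, the remaining member of the family, was under the limit of 1 FPKM, with 0.86 and 0.72 FPKM in the replicate 2 libraries against 0.22 to 0.34 FPKM in the others. All 3 genes thus had both replicate 2 values above each of the other 4.

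A gene of retinol uptake differed by a like amount. Stra6, the retinol receptor of the plasma membrane, was at 10.9 FPKM in Ifitm3 siRNA replicate 2 and 16.9 FPKM in control siRNA replicate 2, against 0.13 and 0.87 FPKM in the other Ifitm3 siRNA libraries and 0.38 and 0.18 FPKM in the other control siRNA libraries (difference 5.04). The replicate 2 libraries and the others did not overlap. The plasma carrier gene Rbp4 and the storage enzyme gene Lrat were below 0.2 FPKM in every library. Ttr, whose protein transthyretin carries thyroxine and the retinol-RBP4 complex, was at 0.70 and 0.85 FPKM in the replicate 2 libraries and is listed at 0 in the other 4; its mean was under the limit.

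Among the genes of the enzymes that interconvert retinol, retinaldehyde and retinoic acid, Dhrs3 and Rdh5 were higher. Dhrs3, a reductase that turns retinaldehyde back to retinol and is induced by retinoic acid, was at 65.2 and 89.7 FPKM in the Ifitm3 and control siRNA replicate 2 libraries, against 5.26 and 11.7 FPKM in the other Ifitm3 siRNA libraries and 27.5 and 13.1 FPKM in the other control siRNA libraries (difference 2.64). Rdh5, the 11-cis retinol dehydrogenase known from the pigment epithelium of the eye, was at 19.1 and 21.2 FPKM, against 5.35 to 10.8 FPKM in the others (1.48). The genes of the steps toward retinoic acid had smaller differences. Rdh10, which oxidizes retinol, had a difference of 0.65 and the retinaldehyde dehydrogenase gene Aldh1a1 of -0.28, while its relatives Aldh1a2 (at most 0.02 FPKM) and Aldh1a3 (at most 0.35 FPKM) were close to 0 in all 6 libraries. Adh7, an alcohol dehydrogenase gene, differed between the siRNA groups in sign, with 2.20 in the Ifitm3 siRNA group and -0.50 in the control siRNA group.

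Of the 3 binding protein genes, only Crabp2 was higher. It was at 61.3 and 75.2 FPKM in the Ifitm3 and control siRNA replicate 2 libraries, against 3.30 and 7.57 FPKM in the other Ifitm3 siRNA libraries and 9.19 and 5.27 FPKM in the other control siRNA libraries (difference 3.50). Crabp1, the most abundant gene of the list, was at 1703 FPKM in Ifitm3 siRNA replicate 2 and 2438 FPKM in control siRNA replicate 2, against 1736 to 2691 FPKM in the others (-0.13). Fabp5, whose protein can carry retinoic acid to another nuclear receptor, had a difference of -0.64.

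Of the receptor genes only Rarb was higher. It was at 2.84 and 5.59 FPKM in the Ifitm3 and control siRNA replicate 2 libraries, against 0.58 and 0.90 FPKM in the other Ifitm3 siRNA libraries and 2.50 and 1.9 FPKM in the other control siRNA libraries (difference 1.58). Rara (0.30), Rarg (0.40) and Rxrb (0.15) differed little and Rxra was at -0.46. The corepressor gene Ncor1 was at 0.09. Tgm2, a transglutaminase gene and a known retinoic acid target outside the pathway, was at 21.0 and 34.9 FPKM in the replicate 2 libraries, against 2.83 to 12.7 FPKM in the others (2.12). Other genes known to respond in embryos, Meis1 (0.23) and Meis2 (0.26), did not reach the limit, and Hoxb1 and Stra8 were under 1 FPKM.

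Counted over the whole list, 26 of 40 genes were described, 9 were higher (2.18% of all genes were) and 0 were lower, with a median difference of 0.35 against -0.03 over all genes. Replicate 2 was above both others in both groups in 15 of the 26, against 21.5% of all genes. In all 9 higher genes both replicate 2 values lay above every one of the other 4 libraries. Of the 26 genes, 0 passed an adjusted p of 0.05 for Ifitm3 siRNA against control siRNA (limma, smallest adjusted p = 0.445; 6 were under an unadjusted p of 0.05, against 8.9% of all genes, and 9 with a replicate 2 term in the fit, against 15.8%).

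**Figure D2:**
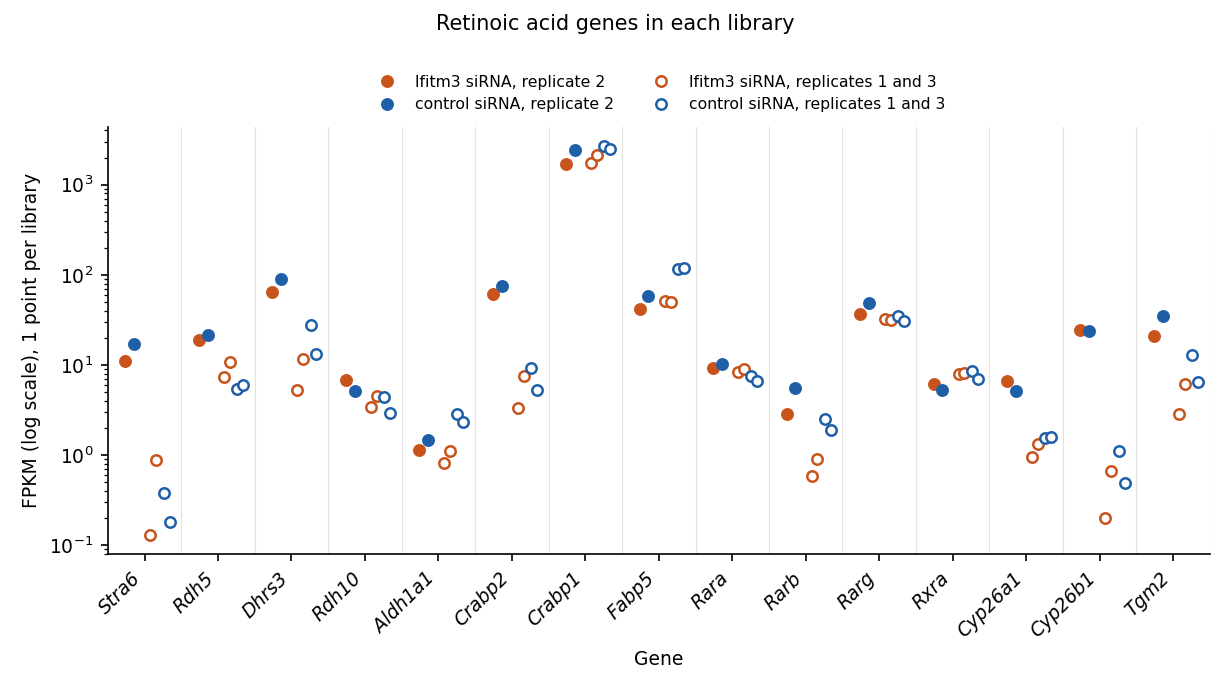
FPKM (log axis) of 15 genes of the retinoic acid list, 1 point per library, with the replicate 2 libraries as filled points at the left of each gene and replicates 1 and 3 as open points at the right. Stra6, Rdh5, Dhrs3, Crabp2, Rarb, Cyp26a1, Cyp26b1 and Tgm2 have both filled points above all open ones, while Crabp1 lies between 1703 and 2691 FPKM in all 6 libraries.

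Outside the retinoic acid pathway, the gene with the highest level among the 12 largest differences was Nupr1, which encodes a small nuclear protein induced by stress. It was at 1902 FPKM in Ifitm3 siRNA replicate 2 and 1229.9 FPKM in control siRNA replicate 2, against 341 and 342 FPKM in the other Ifitm3 siRNA libraries and 209.6 and 231 FPKM in the other control siRNA libraries (difference 2.48). Klf2, a zinc finger factor known to restrain growth in several cell types, was at 30.2 and 39.4 FPKM, against 4.39 and 4.25 FPKM in the other Ifitm3 siRNA libraries and 2.49 and 4.19 FPKM in the other control siRNA libraries (3.17). Aqp1, a water channel, was at 59.5 and 87.3 FPKM, against 5.38 to 15.2 FPKM in the others (2.85). None of these 3 genes had overlapping values between the replicate 2 libraries and the others. The remaining genes among the 12 largest with a mean of at least 5 FPKM were Pmepa1 (2.77), the proglucagon gene Gcg (2.75), Id2 (2.55), the uncharacterized 1700016C15Rik (3.18) and the mitochondrial tRNA gene mt-Th (2.49). Of these only mt-Th overlapped, at 35.9 and 3.39 FPKM in the Ifitm3 and control siRNA replicate 2 libraries and up to 5.79 FPKM in the others. Chosen after its values were seen, the secreted phosphoprotein gene Spp1 was at 6376 and 5486 FPKM in the replicate 2 libraries, against 1524 to 2626 FPKM in the others (1.62), and Aldh3a1, an aldehyde dehydrogenase of the cornea, at 1079 and 1538 FPKM against 193 to 474 FPKM (1.95).

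Genes of several signaling pathways were among the 265. Over all genes described 2.18% were higher and 1.43% were lower. In the Notch list (10 genes described, 2 higher and 1 lower, median 0.11, or 0.22 in the Ifitm3 siRNA group and 0.08 in the control siRNA group) the repressors induced by Notch stood out. Hes1 was at 30.1 and 29.6 FPKM in the Ifitm3 and control siRNA replicate 2 libraries, against 6.94 and 9.85 FPKM in the other Ifitm3 siRNA libraries and 5.60 and 7.02 FPKM in the other control siRNA libraries (difference 2.04). Hey1 was at 5.81 and 4.91 FPKM, against 0.58 to 0.73 FPKM in the others (2.83). In contrast the ligand gene Dll1 was at -0.86 and Rfng, which modifies Notch receptors with sugar, at -1.22.

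Of the TGF-beta targets (15 genes described) 3 were higher, 9 were above both others in both groups, against 2.18% and 21.5% of all genes, and the median was 0.59. It was 0.27 in the Ifitm3 siRNA group alone and 0.73 in the control siRNA group alone. Pmepa1 and Smad7 both encode inhibitors of the pathway. Pmepa1 was at 31.9 and 33.7 FPKM in the Ifitm3 and control siRNA replicate 2 libraries against 7.45 and 8.57 FPKM in the other Ifitm3 siRNA libraries and 3.47 and 2.21 FPKM in the other control siRNA libraries. Smad7 was at 12.9 and 8.91 FPKM against 3.16 to 5.61 FPKM in the others (1.3), and the matrix protein gene Tgfbi at 246 and 169 FPKM against 60.4 to 114.6 FPKM (1.31). In the BMP list (8 genes described, 1 higher and 1 lower, against 2.18% and 1.43% of all genes) 4 differences were above 0 and 4 below. The median was 0.31, or 0.20 in the Ifitm3 siRNA group and 0.55 in the control siRNA group. Id2, an inhibitor of basic helix-loop-helix factors, was at 14.8 and 11.3 FPKM against 1.85 to 2.99 FPKM, while Id1 had a difference of 0.71. The lower gene was Fst (-3.25), described below.

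Among 12 Wnt targets and feedback genes 3 were higher and 0 were lower, against 2.18% and 1.43% of all genes. Without the limit on size, 5 were above both others in both groups and 3 were below both, against 21.5% and 26.7% of all genes. The median was 0.24, or 0.04 in the Ifitm3 siRNA group and 0.56 in the control siRNA group. Lgr6, a receptor of R-spondins, was at 5.16 and 5.87 FPKM in the Ifitm3 and control siRNA replicate 2 libraries, against 2.21 and 1.23 FPKM in the other Ifitm3 siRNA libraries and 0.26 and 0.75 FPKM in the other control siRNA libraries (difference 2.51). Dkk3, a secreted protein of the Dickkopf family found in Müller glia, was at 65.9 and 118 FPKM against 10.6 to 25.8 FPKM in the others (2.23). The Wnt deacylase gene Notum was at 1.01.

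Of 23 immediate early genes described 5 were higher and 1 was lower, against 2.18% and 1.43% of all genes. Their median was 0.31, or 0.18 in the Ifitm3 siRNA group and 0.53 in the control siRNA group. They included Klf2, Egr2 (2.91), Fosb (1.54), Klf10 (1.46) and Egr1 (1.04). Fosb overlapped, at 1.96 and 1.69 FPKM in the replicate 2 libraries against 0.33 to 1.85 FPKM in the others. The difference of Klf10 was 2.36 in the Ifitm3 siRNA group and 0.57 in the control siRNA group. Egr2 was at 6.23 and 3.86 FPKM in the replicate 2 libraries, against 1.22 and 1.39 FPKM in the other Ifitm3 siRNA libraries and 0.11 and 0.38 FPKM in the other control siRNA libraries. Of 24 NF-kB targets and cytokine genes 4 were higher, led by Tnfaip2 (63.2 and 34.6 FPKM against 5.00 to 22.2 FPKM; 2.31) and by the inhibitor gene Tnfaip3 (1.85). The iron-binding lipocalin gene Lcn2 was lower (-1.58). H2-K1, a class I histocompatibility gene, was at 589 and 504 FPKM in the replicate 2 libraries against 176 to 288 FPKM in the others (1.16). The list of ERK targets differed between the siRNA groups, with a median of 0.00 in the Ifitm3 siRNA group and 0.80 in the control siRNA group, a gap that was not tested.

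Genes of the matrix and its turnover were split. Among 23 matrix glycoprotein and proteoglycan genes 5 were higher and 0 were lower, against 2.18% and 1.43% of all genes. Their median was 0.10 (0.01 in the Ifitm3 siRNA group and 0.20 in the control siRNA group). The proteoglycan gene Vcan was at 23.5 and 24.3 FPKM in the Ifitm3 and control siRNA replicate 2 libraries, against 7.67 to 10.2 FPKM in the others (difference 1.39), and Sparcl1 at 8.56 and 7.00 FPKM against 0.67 to 2.54 FPKM (2.68). Of 25 genes of proteases, inhibitors and crosslinkers 3 were higher and 3 were lower. Plau, the urokinase plasminogen activator, was at 23.2 and 37.8 FPKM against 5.67 to 8.47 FPKM (2.04), and Timp3, an inhibitor of matrix proteases, at 185 and 211 FPKM against 38.3 to 82.8 FPKM (1.80). Adamts1 and Adamts5, proteases that cut proteoglycans such as versican, had differences of -1.55 and -1.62. Adamts1 was at 7.43 and 7.03 FPKM in the replicate 2 libraries, against 23 and 11.5 FPKM in the other Ifitm3 siRNA libraries and 29.6 and 27.0 FPKM in the other control siRNA libraries. Igfbp3, a carrier of insulin-like growth factors, was at 293 and 324 FPKM against 85.8 to 133 FPKM (1.57).

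The lower genes included secreted, adhesion and nuclear proteins among their 12 largest differences, beside predicted genes, gene copies and a small RNA gene, 5 of which had larger differences than Fst. Fst, the gene of follistatin, which binds and blocks activin, was at 2.33 FPKM in Ifitm3 siRNA replicate 2 and 3.59 FPKM in control siRNA replicate 2, against 68.0 and 13.7 FPKM in the other Ifitm3 siRNA libraries and 15.1 and 45.5 FPKM in the other control siRNA libraries (difference -3.25). L1cam, an adhesion molecule of growing axons, was at 1.38 and 2.95 FPKM, against 8.84 and 8.04 FPKM in the other Ifitm3 siRNA libraries and 12.8 and 11.6 FPKM in the other control siRNA libraries (-2.27). The zinc finger gene Zfp180 was at 1.45 and 1.13 FPKM against 7.39 to 8.72 FPKM (-2.54). The values of the replicate 2 libraries and of the others did not overlap in these genes. The YAP targets Ankrd1 (-2.25) and Ccn1 (-1.17) were lower as well, Ankrd1 at 1.47 and 3.00 FPKM against 5.84 to 14.7 FPKM. Over the 16 genes of that list these 2 were lower and 0 were higher, against 1.43% and 2.18% of all genes. The median of the list was -0.11 (0.01 without Ifitm3 siRNA replicate 2 or without control siRNA replicate 1).

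Sprr2h, a small proline-rich protein of the cornified envelope of squamous epithelia, was at 2.12 and 1.84 FPKM in the Ifitm3 and control siRNA replicate 2 libraries, against 48.9 and 8.26 FPKM in the other Ifitm3 siRNA libraries and 14.7 and 15.6 FPKM in the other control siRNA libraries (difference -3.08). Further genes of the kind, looked up after the values had been seen, were lower as well, Sprr2k (-2.71), Sprr1b (-2.03) and Sprr2g (-1.92), as was the secreted protease inhibitor gene Slpi (-2.83), all with at most 18.5 FPKM in any library. The Sprr genes resemble one another and may share reads. Likewise chosen after their values were seen, the surface antigen gene Ly6a was at 15.4 and 55.7 FPKM in the replicate 2 libraries, against 45.9 and 65.4 FPKM in the other Ifitm3 siRNA libraries and 250.4 and 181 FPKM in the other control siRNA libraries (-1.88), and the chemokine gene Ccl5 was at 186 and 108 FPKM, against 741 and 518 FPKM in the other Ifitm3 siRNA libraries and 281 and 212 FPKM in the other control siRNA libraries (-1.46).

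Several of the 12 largest negative differences belonged to pseudogenes, predicted genes, gene copies or a small RNA gene. The FPKM of a copy depend on how reads shared with its parent gene were assigned. Pseudogenes made up 18.4% of the lower genes (32 of 174), against 3.40% of the higher genes (9 of 265) and 9.88% of all genes described. Tmem254b was at 3.04 FPKM in Ifitm3 siRNA replicate 2 and listed at 0 in control siRNA replicate 2, against 7.88 to 8.92 FPKM in the others. Gm2174 was listed at 0 in Ifitm3 siRNA replicate 2 and was at 4.25 FPKM in control siRNA replicate 2, against 6.48 to 8.41 FPKM. Here a single library set the size of the difference. The remaining ones were the predicted gene Gm49909, the transcribed processed pseudogenes 2210409E12Rik and Gm10045, the small nucleolar RNA gene Snora24 and Rpl10-ps3 (annotated as protein-coding, despite its pseudogene name), with differences between -4.59 and -2.47. In Snora24 (2.47 and 0.08 FPKM in the Ifitm3 and control siRNA replicate 2 libraries) and Gm10045 (0.09 and 20.1 FPKM) most of the difference likewise came from 1 replicate 2 library. The other libraries of Gm49909 ranged from 0.85 to 76.05 FPKM. The median transcript length was 1941 nt for the lower, 2974 nt for the higher and 3051 nt for all genes, and among protein-coding genes alone 2672 nt, 3265 nt and 3387 nt.

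**Figure D3:**
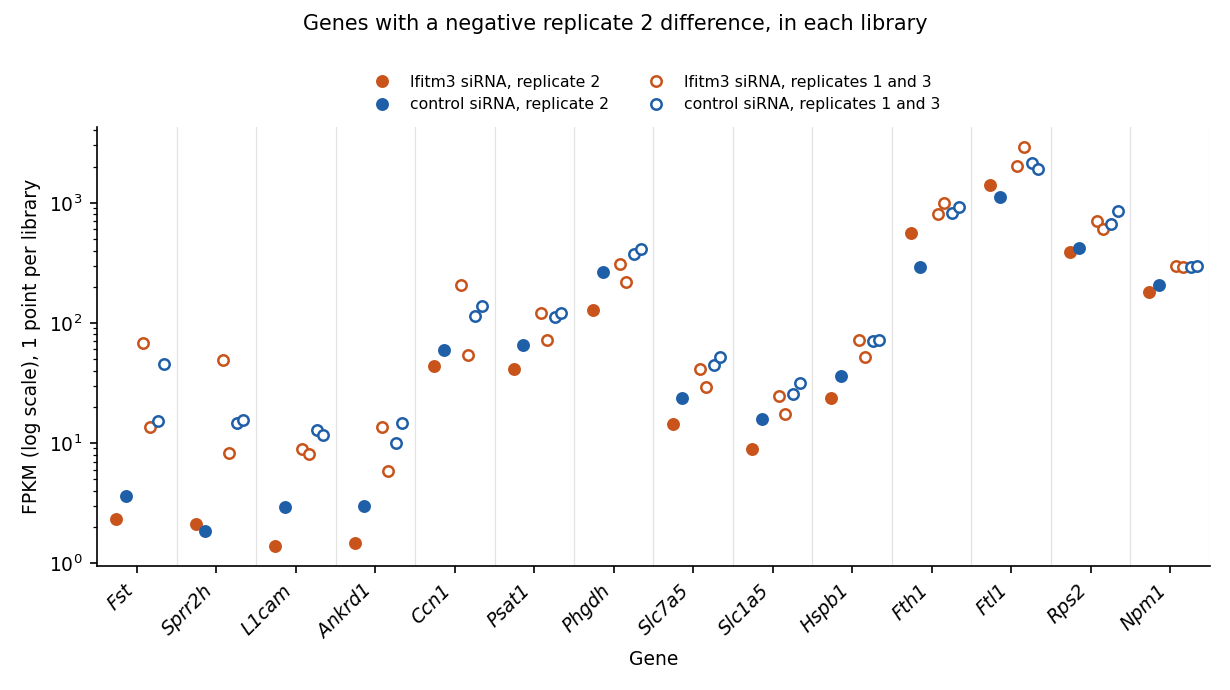
FPKM (log axis) of 14 genes with a negative replicate 2 difference, 1 point per library, with the replicate 2 libraries as filled points at the left of each gene and replicates 1 and 3 as open points at the right. Fst, Sprr2h, L1cam and Ankrd1 have both filled points below all open ones (Fst at 2.33 and 3.59 FPKM against 13.7 to 68.0 FPKM), while the points of Phgdh overlap between the siRNA groups.

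Lists of biosynthesis were below 0 with smaller differences per gene. Over all genes described 26.7% were below both others in both groups and 1.43% were lower. Of 13 genes of serine and one-carbon synthesis 10 were below both others in both groups and the median was -0.58 (-0.81 in the Ifitm3 siRNA group and -0.36 in the control siRNA group), but only Psat1 was lower by the limit. Psat1, an aminotransferase of serine synthesis, was at 41.5 and 65.1 FPKM in the Ifitm3 and control siRNA replicate 2 libraries, against 120.9 and 71.7 FPKM in the other Ifitm3 siRNA libraries and 113 and 121 FPKM in the other control siRNA libraries (difference -1.002). Phgdh, the first enzyme of the path, was at -0.78 and the mitochondrial Shmt2 at -0.77. The ATF4 list, which holds genes of the response to amino acid shortage, had a median of -0.49 over 21 genes. In it 13 genes were below both others, among them the transporter genes Slc7a5 (14.3 and 23.8 FPKM against 29.2 to 52.4 FPKM; -1.14) and Slc7a11 (-1.03), whereas Nupr1, also a known ATF4 target, was higher.

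Of 17 genes of the NRF2 list 10 were below both others, against 26.7% of all genes, with a median of -0.55. Fth1, the heavy chain of the iron store ferritin, was at 557 and 290.4 FPKM in the Ifitm3 and control siRNA replicate 2 libraries, against 799 and 993 FPKM in the other Ifitm3 siRNA libraries and 823 and 915 FPKM in the other control siRNA libraries (difference -1.13). The light chain gene Ftl1 was at -0.83. Among 15 cytosolic chaperone genes 10 were below both others (median -0.39), and only Hspb1 was lower, at 23.8 and 35.8 FPKM against 51.6 to 72.0 FPKM (-1.17). The fatty acid list (16 genes, median -0.45, Acss2 lower at -1.04) and the sterol list (25 genes, median -0.32, or -0.20 in the Ifitm3 siRNA group and -0.45 in the control siRNA group, 15 below both others, 1 lower) lay on the same side.

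Genes of protein synthesis showed small differences in many members. Over all genes described 26.7% were below both others in both groups and 21.5% were above both. Of 80 cytosolic ribosomal protein genes 64 were below both others in both groups, with a median of -0.31, but only Rpl29 was lower by the limit. Rpl29 was at 187 and 5.47 FPKM in the Ifitm3 and control siRNA replicate 2 libraries, and at 7.66 FPKM also in control siRNA replicate 1, so that its difference (-1.54) rested on the control libraries. Rps2 was at 388 and 417 FPKM against 610 to 857 FPKM (-0.81). Of 47 nuclear genes of the respiratory chain 35 were below both others (median -0.28), and of 24 genes of ribosome biogenesis 14 (median -0.38, or -0.45 in the Ifitm3 siRNA group and -0.19 in the control siRNA group), Npm1 being at 182 and 206 FPKM against 289 to 297 FPKM. In contrast 6 of 15 genes of the mitochondrial genome were above both others, with a median of 0.34 in the Ifitm3 siRNA group and -0.04 in the control siRNA group. Mitochondrial genes took 13.0% and 11.4% of the FPKM in the Ifitm3 and control siRNA replicate 2 libraries, against 9.26% to 11.0% in the others, and ribosomal protein genes 7.78% and 7.03% against 8.43% to 9.80%. The part of these shares in the list medians was not tested.

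**Figure D4:**
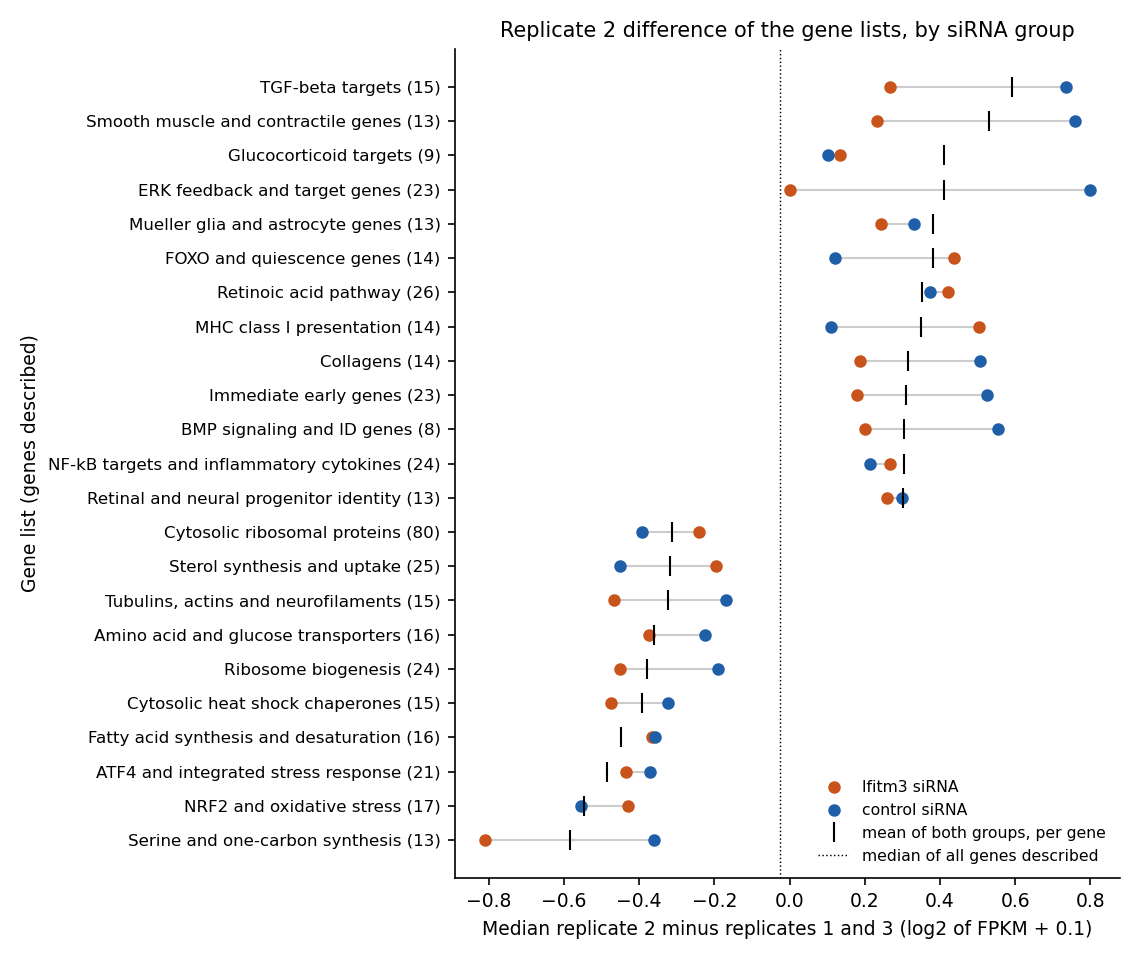
Median replicate 2 difference of the 23 gene lists with at least 5 genes described and an absolute median of at least 0.3, in the Ifitm3 siRNA group (orange), in the control siRNA group (blue) and over the per-gene mean of both (black tick), with the median of all genes as a dotted line. The medians run from -0.58 (serine and one-carbon synthesis) to 0.59 (TGF-beta targets), and the ERK targets have the widest gap between the groups among the lists above 0 (0.00 and 0.80).

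The cells were compared with markers of the retina. Of 10 markers of retinal progenitors 6 reached 1 FPKM, among them Pax6 and Six3, while the defining factors Rax and Six6 were listed at 0 in all 6 libraries, so that the label of the cells was not borne out by these genes. Pax6 was at 12.4 and 10.8 FPKM in the Ifitm3 and control siRNA replicate 2 libraries against 8.39 to 13.7 FPKM, and its difference was 0.07. The summed progenitor markers were at 437 and 559 FPKM in the replicate 2 libraries against 265 to 454 FPKM, and most of each sum came from 1 gene, the cyclin gene Ccnd1, at 312 and 446 FPKM against 182 to 371 FPKM. The progenitor list as a whole (13 genes) had a median of 0.30, with Hes1 higher and Sox3 lower (-1.40).

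Markers of other cell types were mixed. The 6 markers of Müller glia summed to 446 and 659 FPKM in the Ifitm3 and control siRNA replicate 2 libraries against 582 to 747 FPKM, nearly all of it from Vim, while Rlbp1 and Slc1a3 were near 0. Sox9 was at 23 and 30 FPKM against 7.01 to 20.0 FPKM, and the water channel gene Aqp4 at 2.60 and 0.86 FPKM against 0.13 to 0.48 FPKM. The 7 photoreceptor markers were at 0.19 and 0.13 FPKM against 0.19 to 0.37 FPKM. The 6 markers of the retinal pigment epithelium were at 0.87 and 0.95 FPKM against 0.10 to 0.24 FPKM, a gap that came from Ttr, while Rpe65, Tyr and Lrat were at or near 0. Markers of pericytes and smooth muscle summed to 20.6 and 42.8 FPKM against 12.7 to 33.3 FPKM, and came from Acta2 (12.2 and 33.7 FPKM against 6.53 to 18.7 FPKM) and Pdgfrb (7.97 and 8.94 FPKM against 6.01 to 14.4 FPKM), with Myh11 and Des near 0. Those of fibroblasts summed to 26.3 and 29.7 FPKM against 24.3 to 36.5 FPKM and came mostly from Twist1 (23.6 and 27.4 FPKM against 22.9 to 34.7 FPKM) and in part from Pdgfra, with Lum, Col1a1 and Dcn near 0. Cd68, a marker of macrophages, was at 3.36 and 1.49 FPKM against 12.8 and 9.35 FPKM in the other Ifitm3 siRNA libraries and 1.94 and 2.68 FPKM in the other control siRNA libraries. The part of any of these cells in the differences above was not tested. Endothelial markers were at most 0.20 FPKM in sum. In such bulk samples fewer cells of a type and less RNA per cell cannot be told apart.

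Whether replicate 2 differed by another amount after the Ifitm3 siRNA than after the control siRNA was tested. This interaction itself was not used to choose the libraries, but the spread it is measured against is not free of that choice. In 0 of 12174 genes (0%) the interaction was past 0.05 after Benjamini-Hochberg adjustment in limma (smallest adjusted p = 0.141), and 529 genes (4.35%) were under an unadjusted p of 0.05. The test rests on 2 residual degrees of freedom per gene. Replicate 2 is 1 library in each siRNA group and adds nothing to the spread, which comes from replicates 1 and 3 alone. Replicate 2 is thus assumed to vary like them, and a count of 0 does not show that the groups were alike. Replicate 2 was also chosen for standing apart, which tends to leave the closer libraries as replicates 1 and 3. Their spread may be too small for this test, and its p-values too low. Genes count as higher or lower more readily where replicates 1 and 3 lie close together, which also lowers the p of this test. The shares of higher and lower genes are therefore a description. Of the higher genes 16 (6.04%) and of the lower genes 26 (14.9%) were under that unadjusted p. In the retinoic acid list they were Adh7, at a difference between the groups of 2.70 (standard error 0.31, adjusted p = 0.411 from limma), and Fabp5.

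Among the genes with the smallest p of the interaction and a mean of at least 5 FPKM, 6 shared a pattern of values. Csf1, the growth factor of macrophages, was at 21.4 FPKM in Ifitm3 siRNA replicate 2 and 62.2 FPKM in control siRNA replicate 2, against 77.4 and 78.9 FPKM in the other Ifitm3 siRNA libraries and 26.3 and 25.4 FPKM in the other control siRNA libraries (adjusted p = 0.191 from limma). Eif4h, a translation initiation factor, was at 22.7 and 56.4 FPKM, against 69.3 and 59.3 FPKM in the other Ifitm3 siRNA libraries and 27.0 and 27.2 FPKM in the other control siRNA libraries. Arrb1, the gene of beta-arrestin 1, ran the other way, at 7.02 and 2.06 FPKM in the replicate 2 libraries, against 1.29 and 1.95 FPKM in the other Ifitm3 siRNA libraries and 10.2 and 8.62 FPKM in the other control siRNA libraries. In these genes, as in Pakap, Ube2d2a and Bloc1s6, each replicate 2 library lay nearer to the other libraries of the opposite siRNA group. The rule that names these genes selects large interactions. Zfp422 differed from them, with 1.89 FPKM in control siRNA replicate 2 and 6.77 to 7.70 FPKM elsewhere. Ifitm3 itself, the interferon-induced gene that the siRNA targets, had its lower values in the libraries labelled with the Ifitm3 siRNA, replicate 2 included, at 546 FPKM in Ifitm3 siRNA replicate 2 against 2120.2 FPKM in control siRNA replicate 2, with 349.7 and 398 FPKM in the other Ifitm3 siRNA libraries and 3121 and 2509 FPKM in the other control siRNA libraries. Unlike in the 6 genes above, each replicate 2 value of Ifitm3 stayed nearer to the other libraries of its own group. It differed from them toward the opposite group, by 0.55 in the Ifitm3 siRNA group and -0.40 in the control siRNA group (interaction 0.95, unadjusted p = 0.028 and adjusted p = 0.999 from limma). Whether the replicate 2 libraries hold some material of the other group was not tested.

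**Figure D5:**
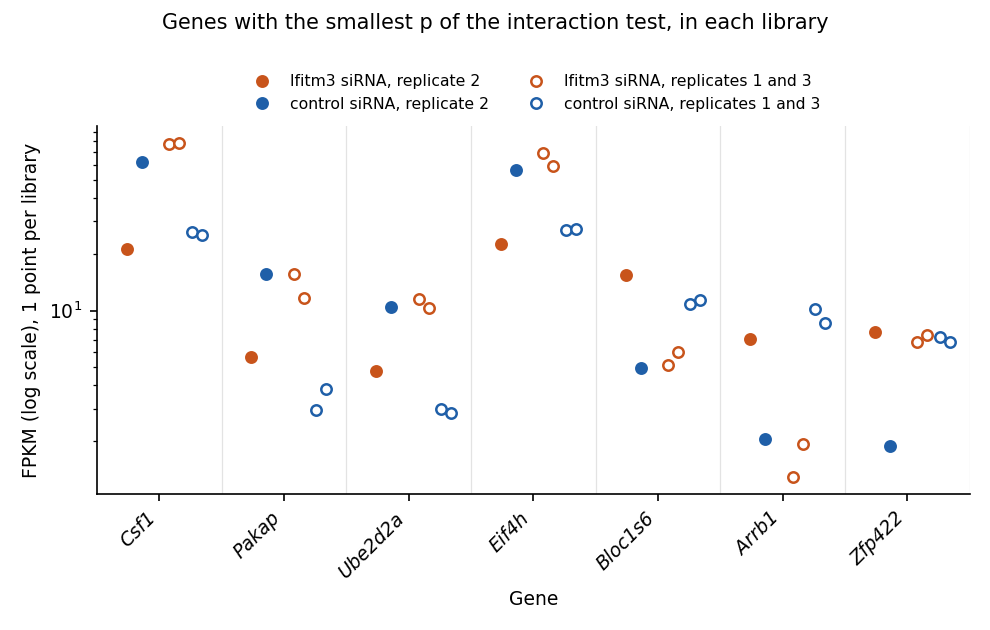
FPKM (log axis) of 7 genes among those with the smallest p of the interaction test, 1 point per library, with the replicate 2 libraries as filled points at the left of each gene and replicates 1 and 3 as open points at the right. In Csf1 the filled points lie at 21.4 FPKM (Ifitm3 siRNA) and 62.2 FPKM (control siRNA), against open points at 77.4 and 78.9 FPKM (Ifitm3 siRNA) and at 26.3 and 25.4 FPKM (control siRNA).

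The comparison of the Ifitm3 siRNA with the control siRNA is balanced over the replicate numbers, and shows what the replicate 2 libraries add to its spread. Over all genes 1084 (8.9%) were under an unadjusted p of 0.05 (limma, siRNA only), 143 (1.17%) also had an absolute log2 fold change over 1, and 1 passed an adjusted p of 0.05. With a term for replicate 2 in the fit 1919 genes (15.8%) were under an unadjusted p of 0.05. Among the 265 higher genes 7 were under it without the term (2.64%) and 59 with it (22.3%), and among the 174 lower genes 12 (6.90%) and 48 (27.6%). None of the 439 genes passed an adjusted p of 0.05 in either fit (0 higher and 0 lower genes, limma). These shares are a description, since a gene counts as higher or lower more readily where replicates 1 and 3 lie close together within each siRNA group. The genes were also chosen for a large replicate 2 difference, which the term takes out of the spread. A rise of their shares with the term thus follows from the choice. The rise over all genes, from 8.9% to 15.8%, follows in part as well, since the libraries were chosen for standing apart. At the thresholds on fold change and p, 177 genes were found with the term, of which 136 were among the 143, and 235 without both replicate 2 libraries, of which 101 were.

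The limits cut through a continuous range. Just inside the limit of 1 on the difference lay the collagen gene Col6a1 (1.01) and Psat1 (-1.002), and just outside it Pid1 (0.999) and Lpl (-0.998). Just outside the limit of 1 FPKM lay Tbc1d16, at a mean of 0.998 FPKM, and the closest gene inside it was at 1.00 FPKM. The median difference fell with GC content, from 0.12 in the bin of lowest to -0.10 in the bin of highest GC among 5 bins of equal size. The signs were the same in both siRNA groups. The number of higher genes ran the other way, with 34 in the bin of lowest and 63 in that of highest GC. Lower genes were 19 and 22 in these bins. The part of GC content in the differences above was not tested.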

How the data were processed

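The table that the authors deposited holds 1 value per gene for each of 6 libraries, to 2 decimals. These were read as FPKM from the tools used and from their range. Tools named in the submitters' processing notes are cutadapt 1.9, HISAT2 2.0.4 and StringTie 1.3.4d, with hg18 as build, which is a human build, although the identifiers are mouse (99.5% of 55401 are in GENCODE vM21). Coordinates of the values were not used. The read depth is unknown, so that no counting error can be given.

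For genes averaging 1 FPKM or more, log2(FPKM + 0.1) was computed from the FPKM the authors deposited (Python 3.11.15, pandas 2.3.3). Tests were run with limma 3.58.1 in R 4.3.3, as two-sided moderated tests with a trend of variance on mean, and p-values were adjusted by Benjamini-Hochberg across all 12174 genes. The steps were tested on simulated data. Members, lists and tests were chosen with earlier results of these data known; the retinoic acid list, the repeat searched in promoters (RefSeq, GRCm38.p6) and the genes so marked were chosen after their values were seen.

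The genes named are the 12 per direction with the largest difference among the higher or lower genes averaging 5 FPKM or more, up to 4 per list by size of difference (in the retinoic acid list all members could be named), up to 5 per direction with the smallest interaction p and an average of 5 FPKM or more, Ifitm3, and the genes next to the limits; some genes of these sets are not reported here. Lists were 58 in all, 50 of the first 57 with at least 5 genes described, and 26 of these had a median above 0 and 24 below. Alternatives were another pseudocount, other filters, median-ratio scaling, quantile normalization, protein-coding genes only (added after seeing the data) and leaving out each library.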

Additional observations from a re-analysis of the deposited data

How the results depend on the processing

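With a pseudocount of 1 in place of 0.1, 175 genes were higher and 86 lower in the replicate 2 libraries, and 76 genes passed the thresholds for Ifitm3 siRNA against control siRNA. With no filter on low values these counts were 687, 383 and 413, and 1046 genes passed the interaction test, of which 1022 had a mean under 1 FPKM and 948 were listed at 0 in the other 4 libraries. Without the mean-variance trend 1 gene passed the interaction test. Leaving out 1 library at a time gave 260 to 422 higher genes, 182 to 371 lower genes, 0 genes past the interaction test and 117 to 270 genes for the siRNA. The largest counts came without Ifitm3 siRNA replicate 2 (422 higher, 371 lower), where the calls rest on the control siRNA group alone, and, for the siRNA, without control siRNA replicate 2 (270). Without control siRNA replicate 2 the counts were 400 higher and 295 lower, and without both replicate 2 libraries 235 genes passed for the siRNA; the calls then rest on fewer libraries. The interaction could not be fitted without either replicate 2 library.

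With a block for the replicate number, 180 genes passed the thresholds for the siRNA and 0 the interaction test. The numbers were not taken as a pairing, since deviations of same-numbered libraries correlated at 0.063, 0.446 and 0.046 for numbers 1, 2 and 3, and not every library correlated best with its own number.

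Median-ratio scaling (281 higher and 162 lower genes) and quantile normalization (272 and 185) changed these counts by less than 1.5 times. Of 243 genes named by the rule none had its called difference reversed by these settings (0 reversed). Of 23 lists with an absolute median of at least 0.3, 1 changed sign in some setting, the BMP and ID genes, at -0.01 with a mean of at least 0.5 FPKM and -0.02 with no filter. The retinoic acid list ranged from 0.23 to 0.42. Unknown depth limits all values near 1 FPKM, and 2 libraries cannot show how often such a difference occurs among cultures.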
